A study of Mus musculus with 9 samples.

Results

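The genes described here encode the proteins of the cytosolic ribosome, measured as RNA in the heart apex of mice. They were taken from the gene table by name, as the numbered Rpl and Rps genes with the suffixes a, l, x or y allowed, together with Rplp0, Rplp1, Rplp2 and Rpsa. This gave 78 of the 13192 named genes, 46 of the large subunit and 32 of the small subunit. Of these, 3 are paralogs, relatives of a ribosomal protein gene under another name (Rpl3l, Rps27l and Rps4l). A further 7 genes of ribosomal proteins, fusions or binding partners fall outside the naming rule and are given separately; Rps3a1, which the rule also leaves out, was not analysed here.

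AAV-Osm mice carried an adeno-associated virus encoding the cytokine oncostatin M, a member of the interleukin-6 family, and AAV-Null mice carried the control vector. All were wild-type male C57BL/6J mice that received 1e+11 viral particles in the right gastrocnemius, a calf muscle, at 10 weeks of age, and the heart apex was taken 12 weeks later. The virus was thus given away from the heart, and the promoter that drives the transgene is not given in the sources used here. There were 5 AAV-Osm and 4 AAV-Null libraries, with 11841106 to 24551980 counts per AAV-Osm library and 18594875 to 30625134 per AAV-Null library. Osm itself was not analysed here, which leaves the labels without a check by the delivered transcript. The 16 cardiomyocyte markers summed to 118492 to 155926 CPM (counts relative to the library total, after edgeR's TMM scaling) in AAV-Osm libraries and to 115649 to 153412 CPM in AAV-Null libraries, and 0 of them had a library at 0.

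A ribosome holds a single copy of most of its proteins, bound to ribosomal RNA, and cells keep the output of the many ribosomal protein genes in step. Their messages begin with an unbroken run of pyrimidines, the 5′ terminal oligopyrimidine (TOP) tract, through which the growth kinase mTORC1 and the RNA-binding protein Larp1 control how strongly they are translated and how long they last. In heart muscle the demand for ribosomes is known to rise with growth of the muscle cells, and the paralog Rpl3l is largely confined to heart and skeletal muscle.

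Sequence around the start of 5 of the genes is shown because these genes lie toward the ends of the range of fold changes, Rps10 and Rps12 among the 5 lowest and Rps6, Rpl4 and Rpl3l among the 5 highest, and because the start is where the TOP tract lies. Each line holds 40 bases before and 20 bases from the start annotated by RefSeq (GRCm38.p6), read 5′ to 3′ on the strand of the gene. Capitals mark runs of at least 6 pyrimidines (C or T) that open with C.
Rps10: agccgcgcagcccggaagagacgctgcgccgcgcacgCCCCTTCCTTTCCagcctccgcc
Rps12: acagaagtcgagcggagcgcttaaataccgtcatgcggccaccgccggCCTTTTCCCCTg
Rps6: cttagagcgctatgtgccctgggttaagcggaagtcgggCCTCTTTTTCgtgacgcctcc
Rpl4: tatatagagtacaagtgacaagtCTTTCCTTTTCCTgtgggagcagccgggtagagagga
Rpl3l: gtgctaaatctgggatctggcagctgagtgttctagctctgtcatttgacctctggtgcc

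These windows lie at chr17:27635225-27635284 on the minus strand for Rps10, chr10:23787190-23787249 on the minus strand for Rps12, chr4:86857348-86857407 on the minus strand for Rps6, chr9:64173347-64173406 on the plus strand for Rpl4 and chr17:24727786-24727845 on the plus strand for Rpl3l. The run begins 3 bases before the annotated start in Rps10 and 1 base before it in Rps6, at base 9 of the transcript in Rps12, and 17 bases before the start in Rpl4. The Rpl3l window holds 0 such runs. RefSeq start windows were matched for 57 of the 78 genes by symbol, and 40 of these (70.2%) held such a run within the same 60 bases, against 13611 of all 32851 start windows (41.4%). A run is a description of the letters on the gene's own strand; the other strand was not searched, since the tract is a feature of the RNA.

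Ribosomal protein messages were abundant in every library, and 1 AAV-Null library held the most of nearly all of them. Members took 2.71%, 2.88%, 2.70%, 3.10% and 2.66% of all counts in AAV-Osm 1 to 5, against 2.64%, 2.72%, 3.33% and 4.26% in AAV-Null 1 to 4. The mean was 2.81% ± 0.19 in AAV-Osm hearts and 3.24% ± 0.75 in AAV-Null hearts (SD, n = 5 and n = 4), and the groups overlapped. AAV-Null 4 stood above the other 8 libraries and AAV-Null 3 was next, while AAV-Null 1 held the smallest share of all. Of the 78 genes, 71 had their highest CPM in AAV-Null 4, 3 in AAV-Null 3, 2 in AAV-Osm 4 and 1 each in AAV-Osm 1 and AAV-Osm 2. The share of all genes that were highest in AAV-Null 4 is not given here, so these counts have no background beside them.

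**Figure D1:**
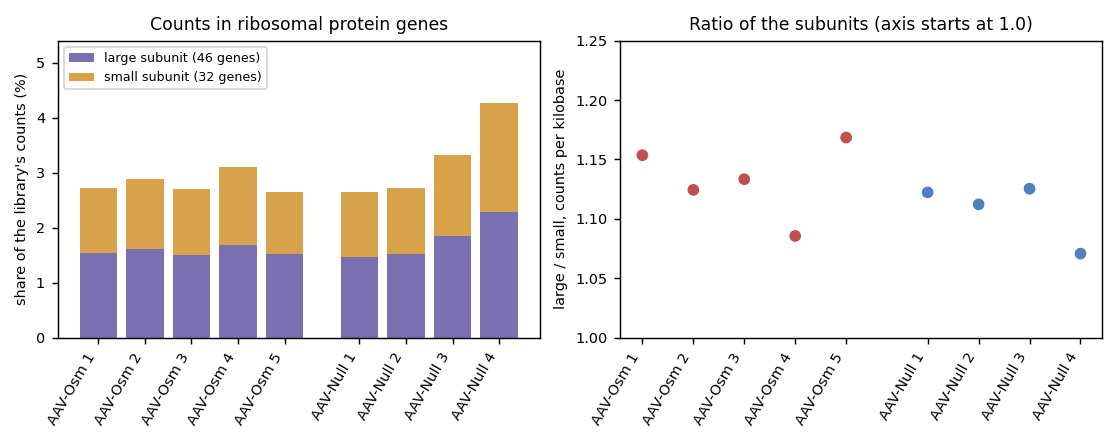
Left, the share of each library's counts (%) in large-subunit (purple) and small-subunit (orange) genes, with AAV-Osm libraries left of AAV-Null libraries; right, the ratio of the subunits' summed counts per kilobase, on an axis that starts at 1.0. AAV-Null 4 has the highest share (4.26%) and the lowest ratio (1.07).

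The genes moved together from library to library. The members' median deviation from their own mean over the 9 libraries (log2 CPM, prior count 2) was -0.16, 0.08, -0.05, 0.09 and -0.29 in AAV-Osm 1 to 5, against -0.23, -0.22, 0.18 and 0.63 in AAV-Null 1 to 4. Across the 75 genes with more than a trace of counts, the median Pearson correlation between pairs of genes over the 9 libraries was 0.76, and the lowest was -0.48. This is a description over 9 libraries that share depth and scaling across all pairs, not a test. The median deviations of AAV-Null 4 were 0.62 for large-subunit genes and 0.66 for small-subunit genes, beside -0.01 for all genes.

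**Figure D2:**
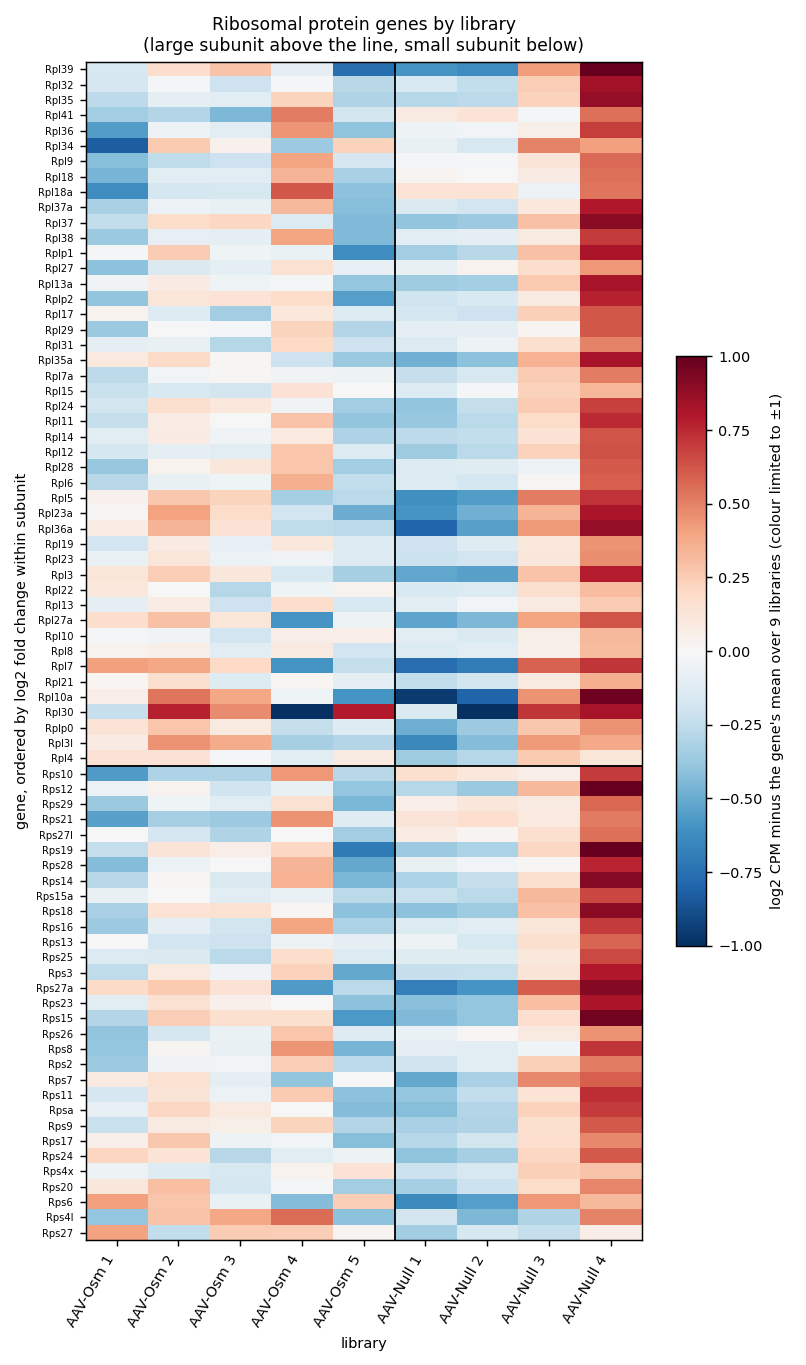
Each row is 1 of 77 of the genes and each column 1 library, AAV-Osm left of AAV-Null; colour is log2 CPM minus the gene's mean over 9 libraries, limited to ±1. The AAV-Null 4 column is red for nearly every gene of both subunits, and the AAV-Null 1 and AAV-Null 2 columns are mostly blue.

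Other measures of the libraries ran alongside. Mitochondrial ribosomal protein genes, 77 in all, deviated by a median of 0.27 in AAV-Null 4, the highest of the 9 libraries, and by -0.20 in AAV-Osm 5, the lowest. The 322 other genes with an exon length under 700 bases deviated by 0.37 in AAV-Null 4 and by -0.25 in AAV-Osm 5, again the extremes. The 1619 other genes over 6000 bases ran the other way, at -0.19 in AAV-Null 4. The 11 macrophage markers, all 11 in the table and 0 of them with a library at 0, summed to 485 to 702 CPM in AAV-Osm libraries and to 475 to 999.5 CPM in AAV-Null libraries, with the top in AAV-Null 4. The 14 liver-type genes, of which 4 had a library at 0, summed to 59.6 to 153.5 CPM in AAV-Osm libraries and to 52.5 to 321.5 CPM in AAV-Null libraries, with the top in AAV-Null 3. The 10 fibroblast markers, all 10 in the table and 0 of them with a library at 0, summed to 1845 to 2894 CPM in AAV-Osm libraries and to 2327 to 3572 CPM in AAV-Null libraries, with the top in AAV-Null 4. Their log2 fold changes were negative for 10 of 10, with a median of -0.26, and none passed. For the 9 smooth muscle and pericyte markers, 0 had a library at 0. Their sums were 3442 to 5868 CPM in AAV-Osm libraries and 3292 to 5717 CPM in AAV-Null libraries. Des alone held 3048 to 5535 CPM in AAV-Osm libraries and 2857 to 5419 CPM in AAV-Null libraries, so these sums mostly follow Des. Abcc9, the next highest, held 75.6 to 176.1 CPM over all libraries. The sums are therefore not read as a level of smooth muscle cells or pericytes. The list's median deviation in AAV-Null 4 was -0.46, where Des stood at 5419 CPM. The part of each of these in the ribosomal protein values was not tested. In bulk tissue, fewer cells of a type and less RNA per cell cannot be told apart.

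Between the groups, 0 of the 78 genes passed an adjusted p under 0.05 in edgeR's quasi-likelihood test with Benjamini-Hochberg adjustment over all genes, where 16 of all genes (0.121%) did. The lowest adjusted p of a member was 0.74. At an unadjusted p under 0.05 there were 3 members (Rps27l, Rps29 and Rps10), or 3 of 78 against 5.97% of all genes. DESeq2 also called 0 members, with 3 at an unadjusted p under 0.05 against 6.28% of all genes. So did limma-voom, with 15 of the 78 members at an unadjusted p under 0.05 against 25.2% of all genes. The adjusted calls of DESeq2 and limma-voom over all genes are not given here.

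The log2 fold change was negative for 71 of the 78 genes (42 of 46 large-subunit and 29 of 32 small-subunit genes), against 48.1% of all genes. Its median was -0.21 over all members, -0.18 over the large subunit and -0.22 over the small subunit, beside 0.01 over all genes tested. The median 95% interval, not adjusted for the number of genes, reached 0.45 on either side of a member's estimate. For a typical member a smaller change was not detectable with these libraries, and passing the adjusted threshold needed a larger change still.

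This negative median rested on AAV-Null 4. Without that library the median was 0.04 over all members, 0.04 over the large subunit and 0.03 over the small subunit, beside 0.01 over all genes. In that fit 29 of the 78 genes were negative, and 0 passed, where 10 of all genes did. Leaving out any other single library kept the median of all members between -0.31 and -0.15. With limma-voom, which gave AAV-Null 4 a weight of 0.34, AAV-Null 1 a weight of 2.34 and AAV-Null 2 a weight of 3.35, the median was 0.12. Of its 15 members at an unadjusted p under 0.05, 11 were higher and 4 lower in AAV-Osm hearts, where 1683 of all genes were higher and 1643 lower. No direction for the ribosomal proteins as a group is therefore drawn.

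**Figure D3:**
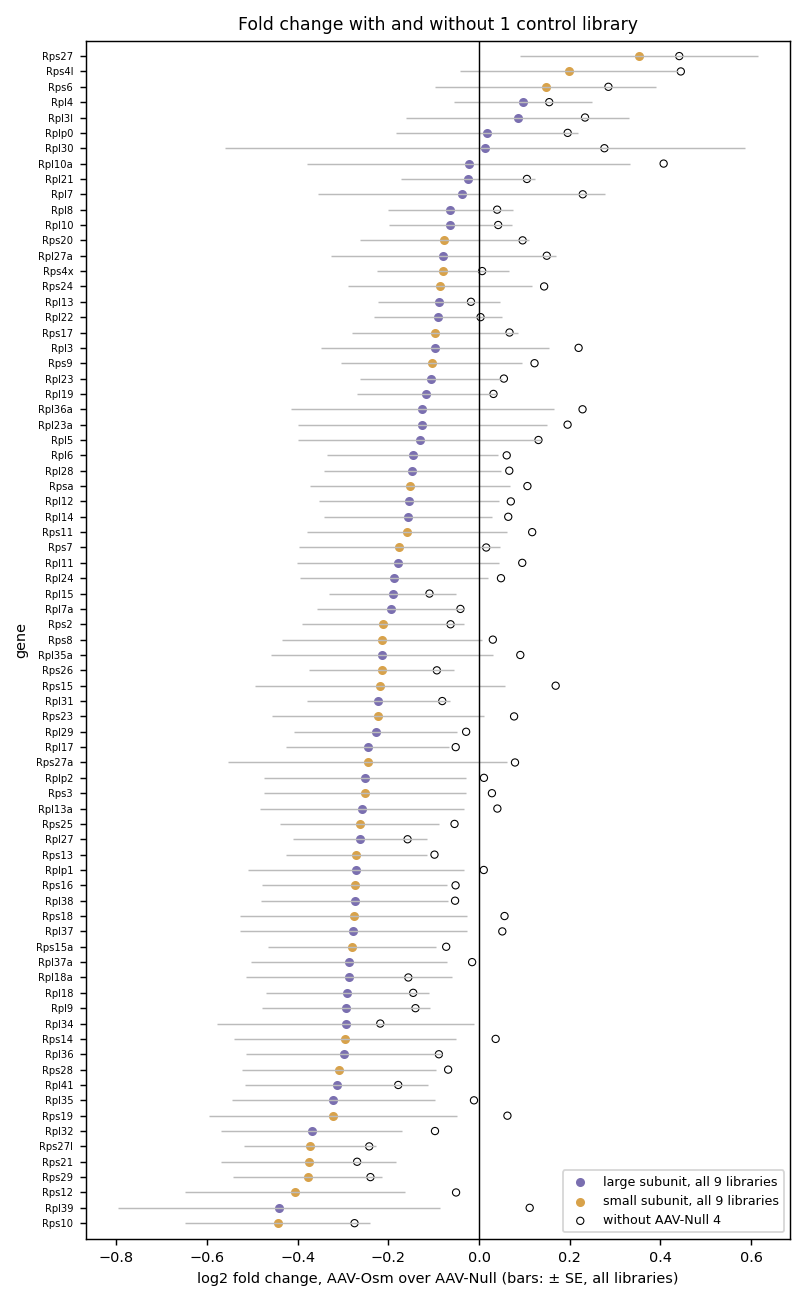
Points are the log2 fold change of AAV-Osm over AAV-Null for 77 of the genes with all 9 libraries (purple, large subunit; orange, small subunit; bars, ± SE), and open circles are the same without AAV-Null 4. Of the genes drawn, the filled points lie left of 0 for 70 and the open circles for 29.

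Shorter genes had the more negative values. The 38 members under 700 bases of exon had a median log2 fold change of -0.27, the 22 members of 700 to under 1000 bases -0.16, and the 18 members of 1000 bases or more -0.12. Genes outside the family under 700 bases had a median of -0.18, and -0.08 without AAV-Null 4. With an offset for exon length fitted in each library, the members' median was -0.08. That offset was fitted over all genes, members included, so it can take up part of the members' own deviation.

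The subunits kept nearly the same proportion in all libraries. Summed counts per kilobase of large-subunit genes over small-subunit genes were 1.15, 1.12, 1.13, 1.09 and 1.17 in AAV-Osm 1 to 5, against 1.12, 1.11, 1.13 and 1.07 in AAV-Null 1 to 4. The mean ratio was 1.13 ± 0.03 in AAV-Osm hearts and 1.11 ± 0.03 in AAV-Null hearts (SD, n = 5 and n = 4), a difference of 0.03, within the spread of each group. The ratio was lowest in AAV-Null 4, the library with the largest share of these messages, and next lowest in AAV-Osm 4.

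Levels per length differed far more between genes than between groups. The median member stood at 507 CPM per kilobase, and 63 of the 78 lay between 100 and 1000. The 5 highest were all but 1 of the small subunit. Rps15, a protein near the decoding centre, averaged 1844 ± 422 CPM per kilobase in AAV-Osm hearts and 2146 ± 1063 in AAV-Null hearts. Rps14, which lines the small subunit's platform, averaged 1243 ± 275 in AAV-Osm hearts and 1526 ± 653 in AAV-Null hearts, and Rps2 1207 ± 202.5 in AAV-Osm hearts and 1398 ± 323 in AAV-Null hearts. The stalk protein Rplp1 averaged 1042 ± 211.5 in AAV-Osm hearts and 1258 ± 496 in AAV-Null hearts, and Rps29 993 ± 169.8 in AAV-Osm hearts and 1291 ± 237 in AAV-Null hearts (all SD, n = 5 and n = 4). These SDs are spreads between libraries, which all genes share, so they do not rank 1 gene against another. Rps15 had more CPM than Rps14 in every library of both groups, with the shorter exon length (522 against 597 bases). The length is the sum of all exons in the deposited table, up to 5134 bases for Rps15a, so a gene with long rarely used exons reads low on this scale.

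At the other end, Rpl30, Rps27 and Rpl34 were almost uncounted, although each protein is a standard part of the ribosome. Rpl30 had 7, 12, 8, 0 and 14 counts in AAV-Osm 1 to 5, against 6, 3, 19 and 14 in AAV-Null 1 to 4. Rps27 had 27, 12, 15, 11 and 17 counts in AAV-Osm libraries, against 12, 17, 20 and 17 in AAV-Null libraries, and Rpl34 had 20, 33, 24, 13 and 37, against 28, 32, 65 and 41. The other 75 genes had 681 to 45507 counts per library, so the 3 stood apart by at least an order of magnitude in both groups alike, and their fold changes of 0.01 for Rpl30, 0.35 for Rps27 and -0.29 for Rpl34 rest on those few counts.

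Ribosomal protein genes have many processed pseudogenes, and reads that match several places may be dropped or split. Of all 75-base windows of the annotated transcripts of each gene, a median of 45.9% also occurred in a transcript of another gene (GENCODE vM21, either strand), from 0% for Rpl3l and Rps3 to 98.5% for Rps27. The share was 73.95% for Rpl30 and 26.7% for Rpl34, while Rpl5, at 92.5%, averaged 149.8 CPM per kilobase. Exons of the antisense gene D730044K07Rik cover 252 of the 626 exon bases of Rpl30, and 475 of the 573 exon bases of Rps10 also belong to an annotated read-through transcript on the same strand. How reads with several matches or overlapping genes were counted is not given in the sources used here, and whether either accounts for the low counts was not tested. The 15 members that shared under 15% of their windows had a median log2 fold change of -0.16, and 12 of them were highest in AAV-Null 4.

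**Figure D4:**
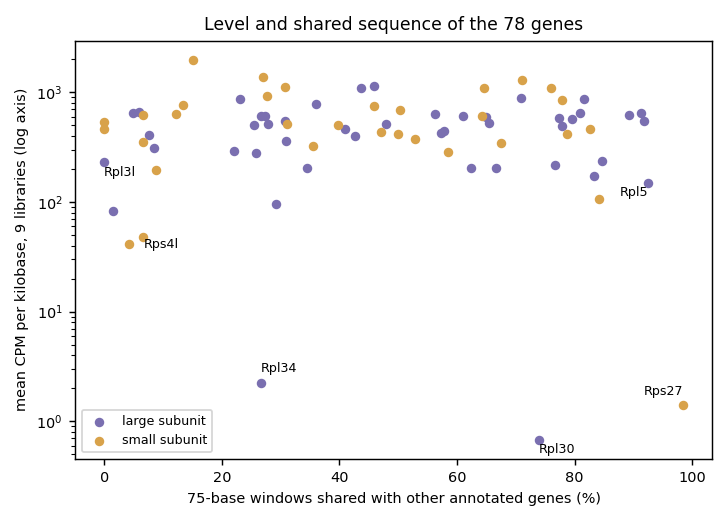
Mean CPM per kilobase over 9 libraries (log axis) against the share of 75-base windows (%) found in other annotated genes, 1 point per gene. Rpl30, Rps27 and Rpl34 lie far below the other 75 genes, at shares of 73.95%, 98.5% and 26.7%, and other genes with high shares do not.

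Among the small-subunit genes, Rps27l had the smallest p and was the 1 member whose groups did not overlap in CPM, where 2.28% of all genes did not. Rps27l, a paralog of Rps27 that is known as a target of the p53 tumour suppressor, had 88.9, 79.1, 72.0, 89.1 and 69.6 CPM in AAV-Osm 1 to 5, against 93.3, 90.6, 98.95 and 130.2 CPM in AAV-Null 1 to 4. The highest AAV-Osm library lay just under the lowest AAV-Null library. Its log2 fold change was -0.37 (SE 0.14, 95% interval -0.69 to -0.06, unadjusted p = 0.023, adjusted p = 0.74 by edgeR). It was -0.24 without AAV-Null 4 and -0.20 with the length offset.

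Rps29, a small zinc-binding protein of the small subunit, had 333, 417, 397, 477 and 313 CPM in AAV-Osm hearts, against 451, 464, 457 and 642 CPM in AAV-Null hearts. AAV-Osm 4 lay inside the AAV-Null range and the other AAV-Osm libraries below it (log2 fold change -0.38, SE 0.16, adjusted p = 0.80 by edgeR). Rps10, at the head of the small subunit, had the lowest fold change, -0.44 (SE 0.20, adjusted p = 0.83 by edgeR). Its values were 162, 194, 194.5, 324 and 198 CPM in AAV-Osm hearts, against 268, 258, 252 and 389 CPM in AAV-Null hearts. Again AAV-Osm 4 alone reached the AAV-Null range. Rps21 also had AAV-Osm 4 alone among the AAV-Null values, with 161, 186, 182, 319.7 and 215 CPM in AAV-Osm hearts, against 256, 263, 249.8 and 335 CPM in AAV-Null hearts (-0.38, SE 0.19, adjusted p = 0.88 by edgeR). Without AAV-Null 4, Rps29, Rps10 and Rps21 were at -0.24, -0.27 and -0.27. With the length offset Rps29 was at -0.21, Rps10 at -0.31 and Rps21 at -0.21, and 0 of the 78 members had an unadjusted p under 0.05.

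Rps12 and the large-subunit genes Rpl39 and Rpl32 had values as low, but from AAV-Null 4. Rps12 had 218, 232, 197, 215 and 173 CPM in AAV-Osm hearts, against 186, 174, 283 and 455 CPM in AAV-Null hearts. Rpl39, a small protein at the exit tunnel, had 130.8, 166, 179, 138 and 86.8 CPM in AAV-Osm hearts, against 97.2, 95.04, 196 and 372 CPM in AAV-Null hearts. In both genes 2 of the AAV-Null libraries lay among the lowest values and AAV-Null 4 far above all the others. Their log2 fold changes were -0.41 (SE 0.24) for Rps12 and -0.44 (SE 0.36) for Rpl39, and without AAV-Null 4 they were -0.05 and 0.11. With the length offset they were -0.20 for Rps12 and -0.18 for Rpl39. Rpl32 was at -0.37 (SE 0.20), at -0.10 without that library and at -0.18 with the length offset.

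At the upper end, Rps6, whose protein is phosphorylated by S6 kinase downstream of mTORC1, had 190.4, 173, 136.5, 106 and 169.5 CPM in AAV-Osm hearts, against 91.7, 97.3, 193 and 179 CPM in AAV-Null hearts. Rpl4, a large-subunit protein that lines the exit tunnel, had 483, 482, 432, 404 and 465 CPM in AAV-Osm hearts, against 341, 358, 522 and 475 CPM in AAV-Null hearts. For both genes AAV-Null 1 and AAV-Null 2 were low and AAV-Null 3 was the highest of all libraries. The log2 fold changes were 0.15 (SE 0.24) for Rps6 and 0.10 (SE 0.15) for Rpl4, each with an adjusted p of 0.98 by edgeR.

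The stalk, which recruits the elongation factors, is built from Rplp0, Rplp1 and Rplp2. Rplp0 had 883, 970.4, 850.1, 680.0 and 732.5 CPM in AAV-Osm hearts, against 570.4, 622, 964 and 1096 CPM in AAV-Null hearts, and Rplp1 had 508, 609.9, 497, 490.3 and 334 CPM in AAV-Osm hearts, against 402, 423, 628 and 902 CPM in AAV-Null hearts. The groups overlapped in both. The log2 fold changes were 0.02 (SE 0.20) for Rplp0, -0.27 (SE 0.24) for Rplp1 and -0.25 (SE 0.22) for Rplp2. Rplp0 is often used as a reference gene, and its highest library here was 1.92 times its lowest.

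Rpl5 and Rpl11 bind the 5S ribosomal RNA and, when free, the p53 regulator Mdm2. Rpl5 had 297, 348, 337, 229 and 239 CPM in AAV-Osm hearts, against 188, 195, 411 and 476 CPM in AAV-Null hearts. The AAV-Null libraries held both its lowest and its highest values. The log2 fold changes were -0.13 (SE 0.27) for Rpl5 and -0.18 (SE 0.22) for Rpl11. Rpsa, which also acts as a laminin receptor, was at -0.15 (SE 0.22).

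The paralogs were compared with their parent genes as ratios of counts per kilobase within each library, which removes what both genes share in that library. Rpl3l was counted more than Rpl3 per kilobase in every library, by 1.30, 1.54, 1.59, 1.18 and 1.37 times in AAV-Osm 1 to 5, against 1.22, 1.44, 1.47 and 1.01 times in AAV-Null 1 to 4. The groups overlapped, and the mean log2 ratio was 0.47 ± 0.18 in AAV-Osm hearts and 0.34 ± 0.25 in AAV-Null hearts (SD, n = 5 and n = 4), a difference of 0.13 (adjusted p = 0.54, exact two-sided permutation test). Of the Rpl3 windows 83.2% occur in other genes and of the Rpl3l windows 0%, so the level of the ratio depends on how shared reads were counted. In CPM, Rpl3l had 376, 485, 458.5, 281 and 289.9 in AAV-Osm hearts, against 227, 262.5, 475 and 461 in AAV-Null hearts, with a log2 fold change of 0.09 (SE 0.25).

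**Figure D5:**
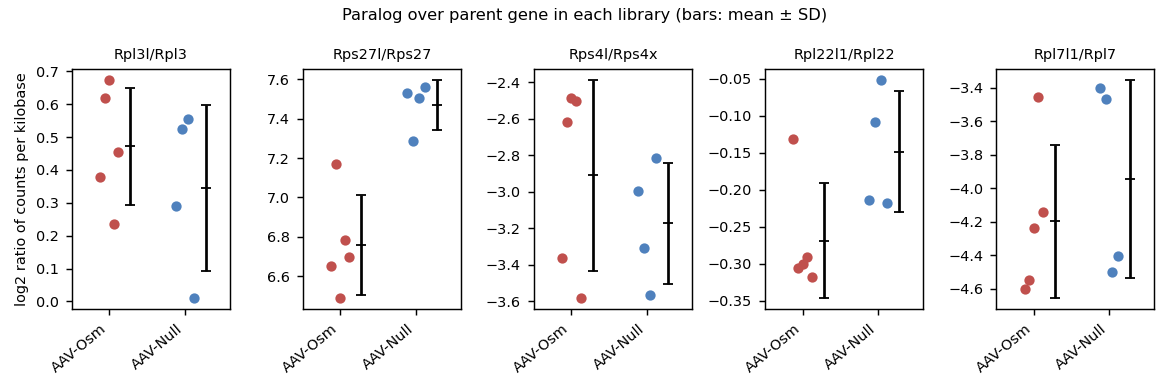
Log2 ratio of counts per kilobase of a paralog over its parent gene, 1 point per library, AAV-Osm (red) left of AAV-Null (blue), with mean ± SD; each panel has its own axis. Only the Rps27l/Rps27 panel shows groups that do not overlap, and its parent gene had 11 to 27 counts per library.

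The log2 ratio of Rps27l to Rps27 was 0.71 lower in AAV-Osm hearts, at 6.76 ± 0.25 against 7.47 ± 0.13 in AAV-Null hearts (SD, n = 5 and n = 4). The exact two-sided permutation test gave p = 0.0159, the smallest that the regroupings of 5 and 4 libraries allow. Adjusted over the 5 pairs it was 0.079. With 5 pairs, 1 pair alone at the smallest p could not have passed 0.05, so this test could not call it. Its parent is 1 of the 3 nearly uncounted genes, so the ratio carries the counting error of Rps27. The log2 ratio of Rps4l, a single-exon relative, to Rps4x differed by 0.26 (adjusted p = 0.54, exact permutation test), that of Rpl22l1 to Rpl22 by -0.12 (adjusted p = 0.20, exact permutation test) and that of Rpl7l1 to Rpl7 by -0.25 (adjusted p = 0.56, exact permutation test).

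Of the lists for the rest of the pathway, 0 genes passed in edgeR. RNA polymerase I and its factors, which make the ribosomal RNA, had 0 of 19 past the threshold and a median log2 fold change of -0.04, with the subunit Znrd1 at -0.31 (SE 0.15) and Polr2l at -0.28 (SE 0.17). Ribosome assembly factors had 0 of 57, with a median of -0.02, Utp20 at 0.30 (SE 0.16) and Nop58, a core protein of snoRNA particles, at -0.26 (SE 0.15). The 19 other translation genes with TOP messages had a median of -0.02, with Naca at 0.28 (SE 0.22) and the elongation factor Eef2 at 0.18 (SE 0.14).

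The list of TOP message regulators, which also holds the transcription factor genes Mycn, Myc, Max and Tfeb, had 0 of 14 past the threshold and a median of 0.01. Mycn was at -1.04 (SE 0.44, at most 3.38 CPM in any library) and Mtor, the kinase itself, at 0.22 (SE 0.13). The snoRNA host genes, 0 of 9, had a median of -0.09, with Snhg6 at -0.38 (SE 0.18) and Snhg8 at -0.25 (SE 0.16). The 7 genes of ribosomal proteins, fusions or binding partners outside the naming rule, 0 of 7, had a median of -0.21. Among them the binding partner gene Rps19bp1 was at -0.33 (SE 0.17) and Gnb2l1, the scaffold protein Rack1, at -0.24 (SE 0.15). The summed CPM of the 7 was highest in AAV-Null 4. The mitochondrial ribosomal protein genes, 0 of 77, had a median of -0.06, with Mrpl14 at -0.38 (SE 0.17) and Mrpl36 at -0.24 (SE 0.12).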

How the data were processed

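RNA-seq of the heart apex was analysed in 9 libraries, 5 AAV-Osm and 4 AAV-Null. The authors deposited unnormalized read counts for each gene. Alignment and counting, per the submitters' processing notes, involved STAR 2.5.2b, Subread 1.5.1 and featureCounts on mm10. The strand setting, the annotation and the handling of multi-matching reads were not given in the sources used here. Of the table, 13192 lines name a gene and 4141 blank lines were left out; 0 value columns were left unmapped.

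Counts were tested in edgeR 4.0.16 under R 4.3.3 with its quasi-likelihood F test (two-sided, robust dispersions, TMM scaling). The filterByExpr step removed 0 genes, and p-values were adjusted over all genes, with 0.05 as the threshold. The test was checked on simulated counts. Fold changes set AAV-Osm over AAV-Null and carry an SE. DESeq2 1.42.0, limma 3.58.1, other scalings, filters, a length offset and left-out libraries were alternatives. Paralog ratios used counts plus 0.5 and an exact permutation test.

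All pairs of libraries differed beyond sampling noise (chi-square per degree of freedom at least 6.52, taken over genes whose counts in a pair summed to at least 10), and 0 pairs were identical. The lowest value, 6.52, was between AAV-Null 1 and AAV-Null 2, and the other AAV-Null pairs stood at 45 to 98.1. AAV-Osm 2 and AAV-Osm 3 were next closest, at 9.68. Whether each sample is a different mouse is not said outright in the labels; the p-values therefore reflect variation among the samples, which may be technical. Replicate numbers are names only. Members and gene lists were chosen with earlier results of these data known. Genes were named by a rule: the extremes of p, fold change and level, paralogs with their parents, the stalk, Rpsa, Rps6, Rpl5, Rpl11, members with groups apart, and the 2 smallest p of each other list where none passed. A few genes are not reported here by name or drawn by name, and they stay in all counts and tests.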

Additional observations from a re-analysis of the deposited data

Results flagged for a closer look

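In 5 sets of values there was a library far from the rest of its group by Dixon's criterion, among 68 examined; chance marks about 1 in 20. The AAV-Osm 4 library held 324 CPM of Rps10, far above the other AAV-Osm libraries. AAV-Null 4 held 642 CPM of Rps29, 389 CPM of Rps10 and 335 CPM of Rps21, each far above the other AAV-Null libraries. The log2 ratio of Rpl22l1 to Rpl22 was -0.13 in AAV-Osm 1, above the other AAV-Osm libraries.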

How the results depend on the processing

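The count of members past the threshold stayed at 0 in every alternative run. Of all genes, 16 passed in the main fit and 10 without AAV-Null 4. For the other runs that number is not given here, so their 0 has no background beside it. The median log2 fold change of all members turned to 0.04 without AAV-Null 4, 0.12 with limma-voom, 0.11 when AAV-Osm 5 was left out with AAV-Null 4, and 0.19 when AAV-Null 3 was left out with it. The small-subunit median was 0.16, 0.12 and 0.21 in the last 3 of these, and the large-subunit median was 0.09, 0.09 and 0.15. Other scalings, filters, DESeq2 and the length offset kept all 3 medians negative. The ribosomal protein share was 0.43 percentage points lower in AAV-Osm hearts with all libraries (-0.43) and -0.09 without AAV-Null 4. The difference in Rpl3l/Rpl3 was 0.016 without AAV-Null 4, and that in Rpl7l1/Rpl7 was -0.44 to -0.07 over the single libraries left out; no paralog ratio changed sign or passed. The cause of these changes was not tested.

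Single genes changed sign, none of them past the threshold. With limma-voom the log2 fold changes were 0.66 for Rpl7, 0.12 for Rps12, 0.34 for Rps15, 0.47 for Rpl3, 0.014 for Rps2, 0.10 for Rps14, 0.21 for Rpl11, 0.035 for Rpl22, 0.50 for Rpl5, 0.0011 for Rpl32, 0.092 for Rplp2, 0.20 for Rplp1, 0.29 for Rpsa, 0.44 for Rpl39 and 0.048 for Rps4x. With the length offset they were 0.10 for Rpl7 and 0.034 for Rps4x, and DESeq2 gave -0.012 for Rpl30. With AAV-Osm 5 and AAV-Null 4 both left out they were 0.30 for Rpl7, 0.0074 for Rps12, 0.28 for Rps15, 0.29 for Rpl3, 0.12 for Rps14, 0.17 for Rpl11, 0.19 for Rpl5, 0.11 for Rplp2, 0.12 for Rplp1, 0.19 for Rpsa and 0.24 for Rpl39. With AAV-Null 3 and AAV-Null 4 both left out they were 0.81 for Rpl7, 0.20 for Rps12, 0.39 for Rps15, 0.55 for Rpl3, 0.080 for Rps2, 0.20 for Rps14, 0.045 for Rpl34, 0.29 for Rpl11, 0.11 for Rpl22, 0.60 for Rpl5, 0.066 for Rpl32, 0.11 for Rplp2, 0.24 for Rplp1, 0.33 for Rpsa, 0.54 for Rpl39 and 0.16 for Rps4x. Leaving out single libraries gave ranges of -0.30 to 0.28 for Rpl30, -0.079 to 0.26 for Rpl3l, -0.011 to 0.34 for Rps6, -0.12 to 0.20 for Rplp0, -0.24 to 0.23 for Rpl7, -0.32 to 0.13 for Rpl5, -0.38 to 0.17 for Rps15, -0.26 to 0.22 for Rpl3, -0.44 to 0.036 for Rps14, -0.32 to 0.095 for Rpl11, -0.15 to 0.0032 for Rpl22, -0.36 to 0.011 for Rplp2, -0.42 to 0.010 for Rplp1, -0.30 to 0.11 for Rpsa, -0.66 to 0.11 for Rpl39 and -0.16 to 0.0068 for Rps4x.

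The choice of members sharing under 15% of their windows was made after seeing the data. No paired analysis was possible because the labels give no replicate numbers. Depth limits Rpl30, Rps27 and Rpl34, with 0 to 65 counts per library.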

Other observations

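Marker genes named by the smallest p of each cell-type list did not pass in edgeR. Among cardiomyocyte markers, the atrial light chain Myl7 averaged 1.68 CPM in AAV-Osm hearts and 5.42 CPM in AAV-Null hearts (log2 fold change -1.71, SE 0.53), highest in AAV-Null 4 at 11.05 CPM, and the sarcomere gene Tcap averaged 2238 CPM in AAV-Osm hearts and 1469 CPM in AAV-Null hearts (0.61, SE 0.23). Over the list 4 of 16 were negative (median 0.10). Of the fibroblast markers, 10 of 10 negative (median -0.26), Mfap5 was at -0.38 (SE 0.16) and Col1a2 at -0.33 (SE 0.17). The list's median deviation was 0.11, 0.07, -0.05 and 0.33 in AAV-Null 1 to 4, against -0.37 to 0.135 in AAV-Osm libraries. Of the macrophage markers, 9 of 11 negative (median -0.16), C1qa was at -0.29 (SE 0.19) and Lyz2 at -0.36 (SE 0.26), while Mrc1 was at 0.29. The macrophage list's median deviation was -0.20, -0.20, 0.135 and 0.585 in AAV-Null 1 to 4, against -0.28 to 0.31 in AAV-Osm libraries. Of the endothelial markers, 7 of 11 negative (median -0.06), Fabp4 was at -0.18 (SE 0.18) and Cldn5 at -0.30 (SE 0.29), while Vwf was at 0.33. Of the smooth muscle and pericyte markers, 6 of 9 negative (median -0.06), Acta2 was at -0.38 (SE 0.22) and Cnn1 at -0.70 (SE 0.44, at most 2.89 CPM in any library), while Pdgfrb was at 0.21. Mrc1, Vwf and Pdgfrb were chosen after their values were seen. Lymphocyte markers had 7 of 11 listed genes in the table, with 1 of 7 negative and Ms4a1 at 0.60 (SE 0.32, at most 1.36 CPM in any library). Red cell markers had 3 of 7 listed genes in the table, with 0 of 3 negative and Slc4a1 at 0.09 (SE 0.30). Of the liver-type genes, 14 of 14 negative, Ttr was at -1.66 (SE 0.73) and Serpina1c at -1.66 (SE 0.74). The 14 genes summed to 52.5, 71.0, 321.5 and 250.8 CPM in AAV-Null 1 to 4, against 59.6 to 153.5 CPM in AAV-Osm libraries. Adipocyte markers had 1 of 7 listed genes in the table, Cfd, at 0.70 (SE 0.47, at most 1.395 CPM in any library). Fold changes of the cell-type lists without AAV-Null 4 are not given here.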
